A study of Mus musculus with 6 samples.

Results

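T-box transcription factors were followed in FLK1+ mesodermal cells of day 3.5 embryoid bodies (EBs), the aggregates in which mouse embryonic stem (ES) cells differentiate. The members were the rows of the deposited expression table whose gene symbol was T, Eomes, Tbx2, Tbx3, Tbx4, Tbx6 or Tbx20. All 7 were found, among 14005 listed genes, and all 7 were among the 13991 genes tested. The libraries came from wild-type (WT) J1 ES cells and from an Scl-/- ES cell line, which lacks the haematopoietic transcription factor SCL (gene name Tal1), with 3 libraries per genotype and no treatment. FLK1, encoded by Kdr, is the VEGF receptor on which the cells were isolated, with an antibody and magnetic columns. The strain labels read C57Bl/6 X Sv129 for WT replicates 1 and 2 and Scl-/- replicate 1, Sv130 for Scl-/- replicate 2, Sv131 for WT replicate 3 and Sv132 for Scl-/- replicate 3. The numbers rise by 1 over these last 3 libraries in the order of the labels, as in a column filled down by a spreadsheet, and these labels are not taken here to show a difference of strain. The design text describes 3 independent differentiations, and both genotypes carry replicate numbers 1 to 3. With 1 ES line per genotype, a difference of line and a difference of Scl genotype cannot be told apart.

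T-box proteins share a DNA-binding domain named after T (Brachyury), the founding member of the family, and act as activators or repressors depending on the member. In the gastrulating embryo T and Eomes act in the primitive streak, where mesoderm and definitive endoderm form, and Tbx6 acts in the paraxial mesoderm that becomes the somites. Tbx4 is known from the allantois and the hindlimb, Tbx2 and Tbx3 are repressors known from heart, limb and mammary gland, and Tbx20 is a regulator of heart development. SCL binds DNA as a partner of E proteins at E-boxes, often together with GATA factors.

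The libraries held 38623641 to 47621120 reads on listed genes, at which 3 reads equal a CPM value (reads of a gene scaled to a common library total) of 0.0615 to 0.0784, a floor for counting error alone. The targeted gene Tal1 stood at 303, 182 and 306 CPM in WT replicates 1, 2 and 3 and at 9.35, 5.68 and 5.87 CPM in Scl-/- replicates 1, 2 and 3. Kdr lay between 832 and 868 CPM in the WT libraries and between 724 and 810 CPM in the Scl-/- libraries, so the marker of the isolation was present in all 6. The genotypes were compared with limma on log2(CPM + 0.5), a scale that understates the change of low genes. Calls needed both a Benjamini-Hochberg adjusted p under 0.05 and a log2 fold change beyond 0.48 in either direction. The comparison was made without and with the replicate number as a block, that is, over all libraries or within the same-numbered pairs. Positive log2 fold changes are higher in Scl-/- cells.

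The promoters of the 4 members that passed the test with the replicate block are shown because the Scl-/- line lacks a protein that binds E-boxes. Whether SCL acts on these promoters was not tested here. The paper mapped SCL binding by ChIP-seq in WT FLK1+ cells of day 3.5. It lists T among the repressed genes that SCL binds, and attributes a peak to Tbx6 as the nearest differentially expressed gene. Whether those peaks lie in the windows shown was not examined. They are RefSeq sequences of the GRCm38.p6 build, a later build than that of the expression files, and run from 250 bases before to 50 bases after the start of the gene, 5′ to 3′ on the strand of the gene. Capitals mark E-boxes, searched as CANNTG, which reads the same on both strands. The promoter of T spans chr17:8434173-8434472 (plus strand), that of Eomes chr9:118477939-118478238 (plus strand), that of Tbx6 chr7:126781233-126781532 (plus strand) and that of Tbx4 chr11:85896515-85896814 (plus strand).
T: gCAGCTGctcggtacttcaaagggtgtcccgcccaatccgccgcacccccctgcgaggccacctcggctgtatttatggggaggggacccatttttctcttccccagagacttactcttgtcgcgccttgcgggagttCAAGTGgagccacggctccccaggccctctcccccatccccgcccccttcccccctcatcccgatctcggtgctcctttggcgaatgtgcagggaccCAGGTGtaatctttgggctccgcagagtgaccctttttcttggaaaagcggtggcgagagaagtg
Eomes: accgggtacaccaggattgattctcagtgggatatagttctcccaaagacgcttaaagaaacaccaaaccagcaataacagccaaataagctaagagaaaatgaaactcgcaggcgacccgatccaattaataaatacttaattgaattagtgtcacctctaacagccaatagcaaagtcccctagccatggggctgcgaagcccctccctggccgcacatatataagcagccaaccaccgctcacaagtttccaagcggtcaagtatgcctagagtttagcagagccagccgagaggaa
Tbx6: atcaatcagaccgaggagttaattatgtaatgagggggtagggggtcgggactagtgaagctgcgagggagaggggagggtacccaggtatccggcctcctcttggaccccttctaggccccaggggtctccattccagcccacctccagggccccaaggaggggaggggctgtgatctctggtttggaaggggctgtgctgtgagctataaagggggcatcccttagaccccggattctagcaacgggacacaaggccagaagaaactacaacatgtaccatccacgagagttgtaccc
Tbx4: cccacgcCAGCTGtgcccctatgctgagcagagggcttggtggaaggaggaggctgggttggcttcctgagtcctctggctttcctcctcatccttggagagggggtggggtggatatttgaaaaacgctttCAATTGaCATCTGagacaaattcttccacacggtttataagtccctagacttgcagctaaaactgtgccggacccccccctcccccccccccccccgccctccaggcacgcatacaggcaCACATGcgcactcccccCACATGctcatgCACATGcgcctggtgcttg

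The T promoter held 3 E-boxes and the Tbx4 promoter 6, and none was found in the windows of Eomes, Tbx6 or Tbx20. Of all 32851 RefSeq promoters of this length, 72.3% held at least 1 E-box. The T-box half-site AGGTGTGA was searched on both strands and was found in none of the 5 member promoters, against 1.28% of all promoters. The GATA motif AGATAA, also searched on both strands, was found in none of the 5, against 11.2% of all promoters. An E-box and the T-box half-site can share letters where they meet, but no half-site was found in these windows. Tbx2 and Tbx3 had no matching promoter.

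Of the 7 members, 3 were higher and 4 lower in Scl-/- than in WT cells, and their median log2 fold change was -0.16, against 0.009 over all genes tested. Without the block limma called 0 of the 7 members, against 2.36% of all genes tested, although the unadjusted p was under 0.05 in 2 members, T and Eomes. Over the 13991 genes tested, the unadjusted p was under 0.05 in 2474 without the block and in 5161 with it. With the block 4 of the 7 were called, against 12.6% of all genes tested. T, Eomes and Tbx6 were called higher in Scl-/- cells (3 of 7, against 6.04% of all genes in that direction), and Tbx4 was called lower (1 of 7, against 6.6%). The 4 called members had the same sign in all 3 pairs, as 56.2% of all genes did. Only T, 1 of the 7, had WT and Scl-/- libraries that did not overlap, which was the case for 21.6% of all genes. In bulk samples such as these, fewer cells that express a gene and less of its RNA per cell cannot be told apart.

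**Figure D1:**
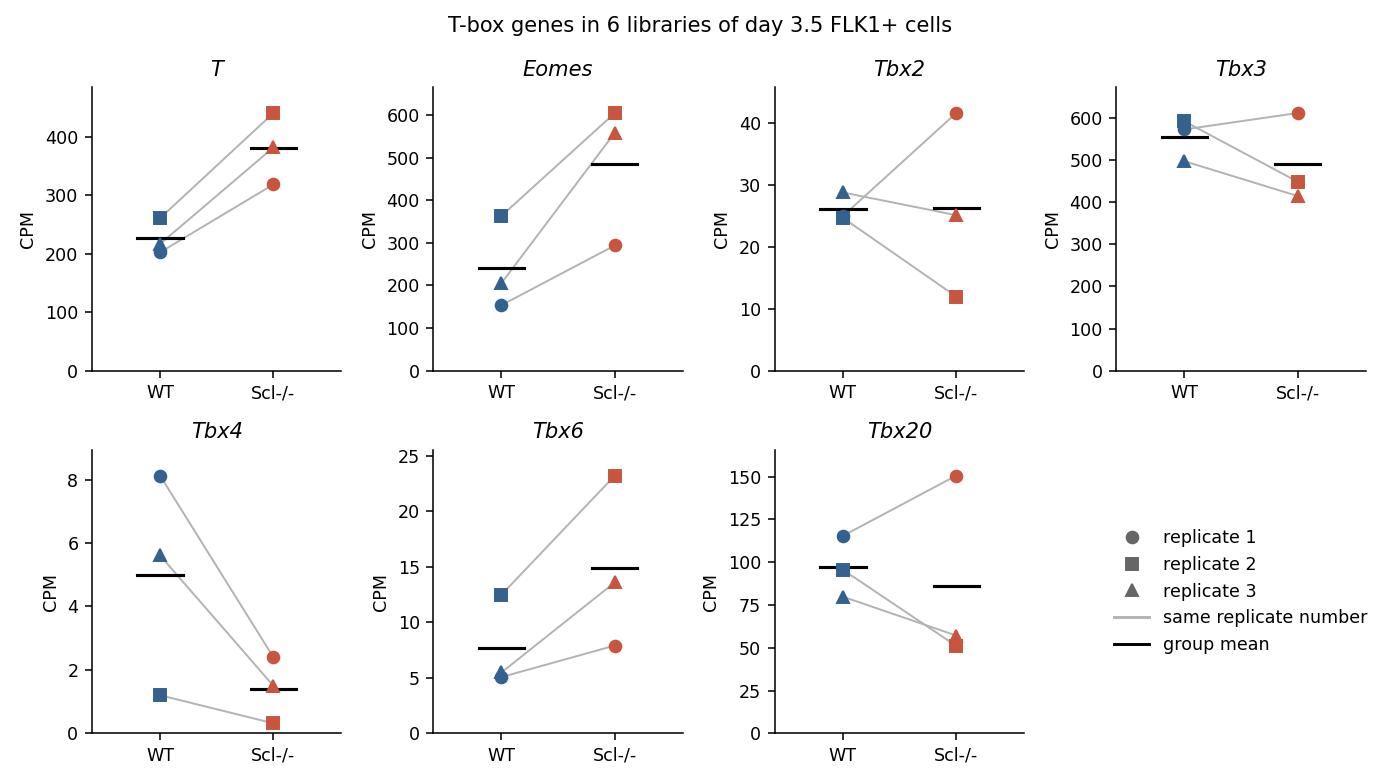
CPM (vertical axes, from 0) of each T-box gene in the 3 WT (blue) and 3 Scl-/- (red) libraries, with one symbol shape per replicate number, grey lines joining libraries of the same number and black bars at the group means. The lines of T, Eomes and Tbx6 go up in all 3 pairs and those of Tbx4 go down in all 3, while Tbx2, Tbx3 and Tbx20 go up in pair 1 and down in pairs 2 and 3.

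T, which encodes Brachyury and is needed for posterior mesoderm and notochord, showed the most even difference of the 7. T (ENSMUSG00000062327) lies on the plus strand of mm9 chromosome 17, from 8627288 to 8635361. It had 203, 261 and 217 CPM in WT replicates 1, 2 and 3 and 319, 441 and 382 CPM in Scl-/- replicates 1, 2 and 3. The lowest Scl-/- library lay above the highest WT library, and replicate 2 was the highest of each genotype. WT cells had a mean of 227 ± 30.5 CPM (SD, n = 3) and Scl-/- cells a mean of 381 ± 61.1 CPM (SD, n = 3). The fitted ratio was 1.67, a log2 fold change of 0.74 with a standard error of 0.15 (95% interval 0.39 to 1.09, limma's adjusted p = 0.0534). With the block, which leaves the fold change as it is, the standard error was 0.060, the interval 0.60 to 0.88 and limma's adjusted p = 1.8e-04. The 3 pairs differed by 0.65, 0.76 and 0.82 on the log2 scale. Without WT replicate 2 or without Scl-/- replicate 1, T was also called by limma without the block (log2 fold changes 0.85 and 0.86, adjusted p = 0.0438 and 0.0389).

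Eomes, a T-box activator of definitive endoderm and of cardiac mesoderm that works upstream of Mesp1, had the largest fitted increase of the members. Eomes (ENSMUSG00000032446) lies on the plus strand of mm9 chromosome 9, from 118387330 to 118395250. It had 154, 363 and 206 CPM in WT replicates 1, 2 and 3 and 294, 605 and 558 CPM in Scl-/- replicates 1, 2 and 3. The genotypes overlapped, since WT replicate 2 lay above Scl-/- replicate 1. In every pair, however, the Scl-/- library was the higher, by 0.93, 0.73 and 1.44 on the log2 scale. WT cells had a mean of 241 ± 109 CPM (SD, n = 3) and Scl-/- cells a mean of 486 ± 168 CPM (SD, n = 3), a fitted ratio of 2.05. The log2 fold change of 1.03 had a standard error of 0.37 without the block (interval 0.17 to 1.90, limma's adjusted p = 0.205). With the block the standard error was 0.12, the interval 0.76 to 1.31 and limma's adjusted p = 9.6e-04.

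Tbx6, which directs mesoderm toward the paraxial fate, followed the same order of libraries at a far lower level. Tbx6 (ENSMUSG00000030699) lies on the plus strand of mm9 chromosome 7, from 133924997 to 133929074. It had 5.07, 12.5 and 5.49 CPM in WT replicates 1, 2 and 3 and 7.91, 23.2 and 13.6 CPM in Scl-/- replicates 1, 2 and 3. WT replicate 2 again lay above Scl-/- replicate 1, and the genotypes overlapped. These values rest on 202, 478 and 226 reads in WT and 386, 961 and 600 reads in Scl-/- replicates 1, 2 and 3. The pairs differed by 0.60, 0.87 and 1.24 on the log2 scale, with the Scl-/- library higher in each. The log2 fold change of 0.90 had an interval of -0.14 to 1.94 without the block (limma's adjusted p = 0.358). With the block the interval was 0.58 to 1.23 and limma's adjusted p = 0.00372. The fitted ratio was 1.87.

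Tbx4, needed for the allantois and known as a hindlimb gene, was the only member called lower in Scl-/- cells. Tbx4 (ENSMUSG00000000094) lies on the plus strand of mm9 chromosome 11, from 85699924 to 85729599. It had 8.13, 1.20 and 5.61 CPM in WT replicates 1, 2 and 3 and 2.40, 0.314 and 1.50 CPM in Scl-/- replicates 1, 2 and 3. Replicate 2, the highest of each genotype for T, Eomes and Tbx6, was the lowest of each for Tbx4, and WT replicate 2 lay below Scl-/- replicates 1 and 3. The reads behind these values were 324, 46 and 231 in WT and 117, 13 and 66 in Scl-/- replicates 1, 2 and 3. The pairs differed by -1.57, -1.06 and -1.61 on the scale of log2(CPM + 0.5), where the fitted WT value was 2.67 times the Scl-/- value. This is not the ratio of the CPM values themselves. Scl-/- replicate 2, at 0.314 CPM, lay below the added 0.5, so pair 2 was understated most. With 0.1 or 1 added instead, the log2 fold change without the block was -1.74 or -1.19. Without the block the log2 fold change of -1.42 had a standard error of 0.68 (interval -3.00 to 0.17, limma's adjusted p = 0.341). With the block the standard error was 0.17, the interval -1.82 to -1.02 and limma's adjusted p = 0.00125. Without the block the fitted size depended on single libraries, from -0.90 without Scl-/- replicate 2 and -0.94 without WT replicate 1 to -2.11 without WT replicate 2, and none of these fits called Tbx4.

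Tbx2, the neighbour of Tbx4 on chromosome 11, encodes a repressor known from non-chamber heart muscle. Tbx2 (ENSMUSG00000000093) lies on the plus strand from 85646053 to 85655450, and its end is 44474 bases from the start of Tbx4. It had 25.0, 24.7 and 28.8 CPM in WT replicates 1, 2 and 3 and 41.7, 12.0 and 25.2 CPM in Scl-/- replicates 1, 2 and 3. The WT libraries were close together, while the Scl-/- libraries included both the highest and the lowest of the 6. WT cells had a mean of 26.2 ± 2.29 CPM (SD, n = 3) and Scl-/- cells a mean of 26.3 ± 14.9 CPM (SD, n = 3), and the log2 fold change of -0.16 had an interval of -1.08 to 0.75 (limma's adjusted p = 0.916). With the block the interval was -0.77 to 0.45 and limma's adjusted p = 0.712. The pairs differed by 0.73, -1.01 and -0.19 on the log2 scale, so the sign was not the same in all of them. Without Scl-/- replicate 2 the log2 fold change was 0.30.

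Tbx20, a heart regulator that acts with Gata4, Gata5 and Nkx2-5, split by differentiation in the same way. Tbx20 (ENSMUSG00000031965) lies on the minus strand of mm9 chromosome 9, from 24527648 to 24578746. It had 115, 95.6 and 79.9 CPM in WT replicates 1, 2 and 3 and 151, 51.1 and 57.1 CPM in Scl-/- replicates 1, 2 and 3. Scl-/- replicate 1 was the highest of all libraries and the other Scl-/- libraries were the lowest. The pairs differed by 0.38, -0.90 and -0.48 on the log2 scale, and the log2 fold change was -0.33 (interval -1.24 to 0.57, limma's adjusted p = 0.765). With the block the interval was -0.79 to 0.13 and limma's adjusted p = 0.273.

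Tbx3, a repressor that also supports pluripotency in ES cells, had the highest CPM of the members in WT cells. Tbx3 (ENSMUSG00000018604) lies on the plus strand of mm9 chromosome 5, from 120120678 to 120134733. It had 572, 592 and 497 CPM in WT replicates 1, 2 and 3 and 611, 448 and 414 CPM in Scl-/- replicates 1, 2 and 3. The genotypes overlapped, with Scl-/- replicate 1 again the highest of the 6. The log2 fold change of -0.19 had an interval of -0.56 to 0.18 (limma's adjusted p = 0.634), and with the block an interval of -0.40 to 0.026 (limma's adjusted p = 0.185). The pairs differed by 0.095, -0.40 and -0.26 on the log2 scale. Tbx3 overlaps the listed antisense gene Gm2301, with a log2 fold change of -0.24, and since strand use in the counting is not given in the sources used here, reads of the overlap cannot be assigned with certainty.

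**Figure D2:**
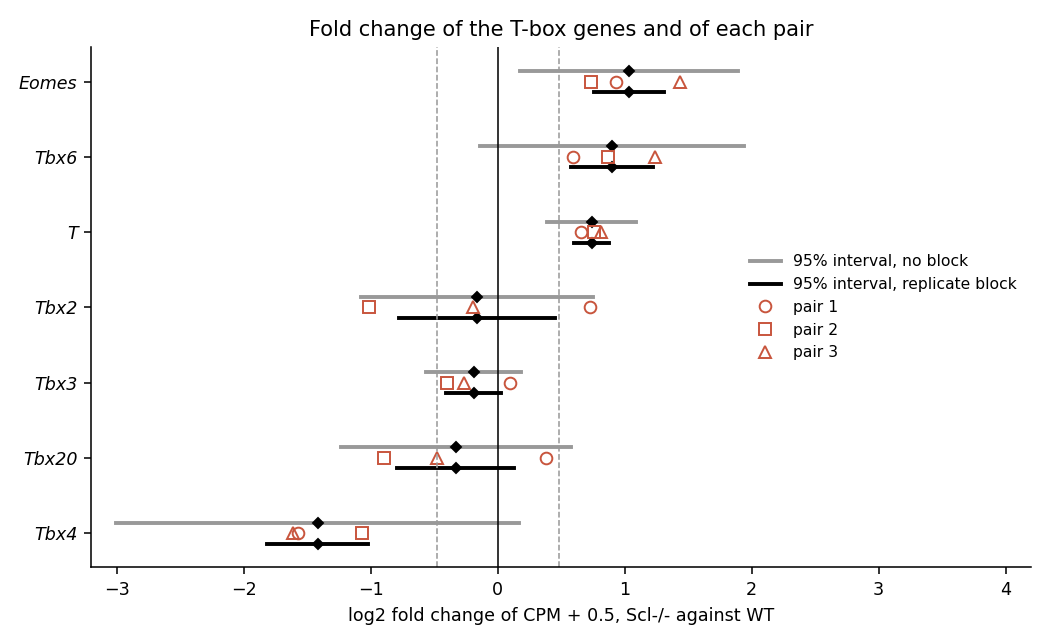
Log2 fold change (horizontal axis, Scl-/- against WT) of each T-box gene (rows), with diamonds at the estimate, grey and black bars for the 95% intervals without and with the replicate block, open red symbols for the 3 pairs, and dashed lines at the threshold of 0.48. The black bars of T, Eomes, Tbx6 and Tbx4 lie clear of 0, and in Tbx2, Tbx3 and Tbx20 pair 1 lies to the right of 0 and pairs 2 and 3 to the left.

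The replicate number, which stands for the differentiation, held a larger share of the spread than the genotype in most members and in most genes. Replicate number has 3 levels and genotype 2, so with no effect of either, replicate number would more often hold the larger share. A larger share therefore does not show a greater effect. For each gene the spread over the 6 libraries was divided into a share for genotype and a share for replicate number, as percentages of the sum of squares of log2(CPM + 0.5). T was the member with the largest share for genotype (82.0%, against 17.4% for replicate number). In Eomes the shares were 52.7% for genotype and 43.0% for replicate number, in Tbx6 37.4% and 59.5%, and in Tbx4 38.5% and 60.3%. Tbx2, Tbx3 and Tbx20 had genotype shares of 2.38%, 20.3% and 9.36%. The replicate number held the larger share in 5 of the 7 members, all except T and Eomes, and in 67.7% of all genes tested. The median share for genotype was 37.4% over the members and 21.3% over all genes, and that for replicate number 55.1% and 58.4%. In a limma F test of the replicate number, 5 of the 7 members had an adjusted p under 0.05 (0.0142 for T, 0.00573 for Eomes, 0.00528 for Tbx6, 0.00284 for Tbx4 and 0.0312 for Tbx20), against 32.5% of all genes tested.

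The members not called with all libraries depended on which differentiation was left out. Fits without a differentiation hold so few libraries that their standard errors rest mostly on limma's pooling over all genes. Pair 1 was the only pair in which Tbx2, Tbx3 and Tbx20 were higher in Scl-/- cells. Leaving it out therefore fixed a common sign for them in advance. With the block and without both libraries of differentiation 1, limma called 6 of the 7 members, against 14.7% of all genes in that fit. Tbx20 was then lower in Scl-/- cells (log2 fold change -0.69, limma's adjusted p = 5.2e-04), as was Tbx2 (-0.60, limma's adjusted p = 0.0171), while Tbx3 (-0.33, limma's adjusted p = 0.00556) stayed under the fold-change threshold. Without differentiation 2, 4 members were called, against 8.02% of all genes, and Tbx20 stood at -0.05 and Tbx2 at 0.27, the opposite sign. Without differentiation 3, 4 members were called, against 8.65% of all genes, with Tbx20 at -0.26 and Tbx2 at -0.14. For Tbx2 both pair 1 and pair 2 thus lay away from pair 3, on opposite sides of it. T, Eomes, Tbx6 and Tbx4 were called in all 3 of these fits. A difference between the differentiations in the response to genotype was not tested, as each held 1 library per genotype.

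Levels were compared between members as CPM per kb of merged exons, since longer transcripts give more reads. Over the 6 libraries T had the highest mean (131 CPM per kb, range 87.6 to 191), followed by Tbx3 (97.4, range 77.2 to 114) and Eomes (87.4, range 37.0 to 146). These 3 ranges overlapped, so the order among them was not separated. Tbx20 followed at 20.4 CPM per kb (range 11.4 to 33.5), below the lowest library of Eomes. Tbx2 (7.23 CPM per kb, range 3.31 to 11.5) and Tbx6 (6.26 CPM per kb, range 2.81 to 12.9) overlapped, and the highest library of Tbx2 lay just above the lowest of Tbx20, so these ranges also overlapped. Tbx4 was the lowest, at 0.938 CPM per kb (range 0.0924 to 2.39), below the lowest library of Tbx6. By group means Tbx3 was highest in WT cells (103 CPM per kb, with T at 98.1 and Eomes at 58.0), and T was highest in Scl-/- cells (165 CPM per kb, with Eomes at 117 and Tbx3 at 91.6).

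**Figure D3:**
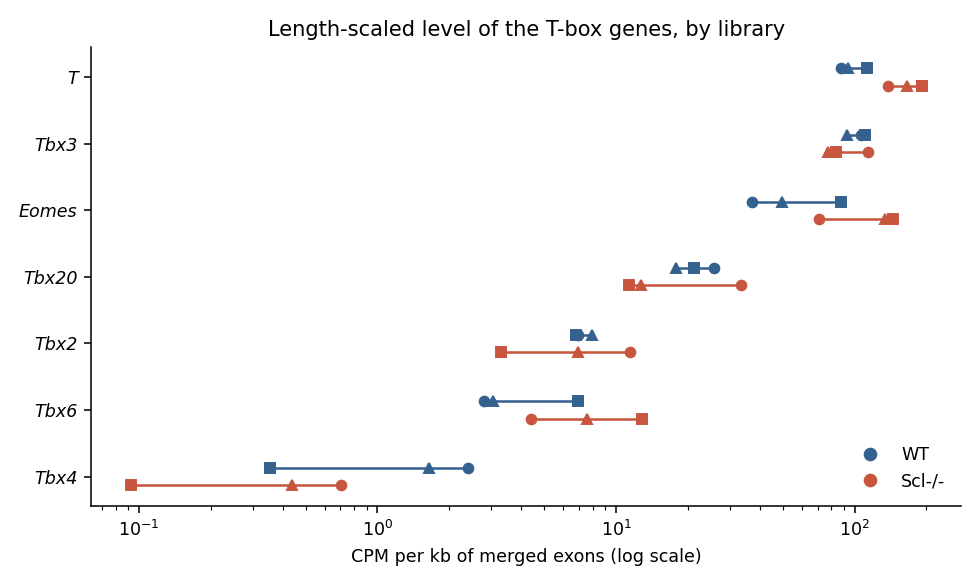
CPM per kb of merged exons (horizontal axis, log scale) of the T-box genes (rows), with one point per library, WT in blue and Scl-/- in red, one shape per replicate number, and lines over the range of each genotype. T, Tbx3 and Eomes form the upper group, and Tbx4, with a mean of 0.938 CPM per kb, lies below the others.

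Over the 6 libraries the members fell into opposite patterns, given here as Pearson's r of log2(CPM + 0.5). The 6 libraries are not independent points, since they share 3 differentiations and 2 genotypes, and these values are descriptions. Eomes correlated with Tbx6 (r = 0.95) and T (r = 0.94), and Tbx4 ran against Tbx6 (r = -0.98) and Eomes (r = -0.94). Tbx20 went with Tbx3 (r = 0.93) and Tbx2 (r = 0.78). The most similar genes were then picked from the 13954 that averaged 1 CPM or more. Picking the highest r among so many genes over 6 libraries gives high values by itself. The most similar to T were Dnajc10 (r = 0.999) and Spry4 (r = 0.998). Those to Eomes were Mycn (r = 0.998) and A530058N18Rik (r = 0.995), and those to Tbx6 Pdzrn3 (r = 0.998) and 1500016L03Rik (r = 0.997). The most similar to Tbx4 were Pitx1 (r = 0.996) and Nedd1 (r = 0.993), to Tbx2 Kank2 (r = 0.996) and Lzts2 (r = 0.985), to Tbx3 Rab22a (r = 0.996) and the unnamed gene ENSMUSG00000090739 (r = 0.989), and to Tbx20 Extl1 (r = 0.998) and Fam122b (r = 0.990).

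Partners and targets of T and Eomes in the primitive streak were mostly higher in Scl-/- cells. Of 17 listed by name, 14 were measured and 13 of these had a higher mean log2 level in Scl-/- cells, and the median of their log2 fold changes was 1.02, against 0.009 over all genes. These 13 include Fgf4, whose log2 fold change was 0.00074 and which was higher in 1 of 3 pairs. Without the block limma called 2 of the 14, both higher, namely Mixl1, a homeobox gene of the streak (log2 fold change 1.04, adjusted p = 0.0378), and the homeobox gene Evx1 (0.75, adjusted p = 0.0271). Over all genes tested the share called without the block was 2.36%. With the block 10 of the 14 were called higher, against 6.04% of all genes, and 1 lower, against 6.6%. The lower one was the caudal homeobox gene Cdx2 (log2 fold change -0.60, limma's adjusted p = 0.0142). The gene lists were chosen with earlier results of these data known, so their counts are not independent support. Mixl1 had 181, 228 and 235 CPM in WT replicates 1, 2 and 3 and 345, 437 and 563 CPM in Scl-/- replicates 1, 2 and 3, with no overlap between the genotypes. Lhx1, a LIM homeobox gene on chromosome 11, had 28.7, 216 and 36.5 CPM in WT and 83.4, 721 and 340 CPM in Scl-/- replicates 1, 2 and 3. Its replicate 2 was the highest of each genotype, as for Eomes. Its log2 fold change was 2.15 (limma's adjusted p = 0.299, or 0.00145 with the block). The other genes called with the block at a log2 fold change above 1 were Sp5 (1.59), Mesp1 (1.40), Mesp2 (1.38), Snai1 (1.28) and Gsc (1.19), none of them called without it.

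The Tbx6 programme of the presomitic mesoderm had 8 of 13 genes measured. Limma called 0 of the 8 without the block, with an unadjusted p under 0.05 in 4. With the block it called 6 higher, against 6.04% of all genes tested, and the median log2 fold change was 0.93. The Notch ligand gene Dll3 had 6.40, 34.9 and 9.25 CPM in WT and 22.3, 99.7 and 56.5 CPM in Scl-/- replicates 1, 2 and 3, with replicate 2 the highest of each genotype, as for Tbx6. The genotypes overlapped for Dll3, and its log2 fold change was 1.92 (limma's adjusted p = 0.216, or 3.6e-04 with the block). Lfng, a modifier of Notch, had a log2 fold change of 1.40, the protocadherin gene Pcdh8 of 1.21 and the Notch ligand gene Dll1 of 1.17, each called with the block only. After centring on the chromosome, Dll1 was no longer called (limma's adjusted p = 0.0516 with the block). Tcf15, a regulator of somite epithelium, stood at a log2 fold change of -0.70 and was not called (limma's adjusted p = 0.0654 with the block).

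Partners, inducers and targets of Tbx2, Tbx3, Tbx4 and Tbx20 in heart, limb and allantois were divided. Of 16 genes, 12 were measured, 6 with a higher and 6 with a lower mean log2 level in Scl-/- cells, and the median log2 fold change was -0.02. Limma called 0 of the 12 without the block, with an unadjusted p under 0.05 in 3. With the block it called 4 higher, against 6.04% of all genes tested. These were Fgf10 (0.70), Gata6 (0.59), Isl1 (0.57) and Gata4 (0.55), which are known from heart and limb fields. It called 1 lower with the block, against 6.6% of all genes, namely the hindlimb homeobox gene Pitx1 (-0.69). After centring on the chromosome, Hand1, a bHLH gene of heart and lateral mesoderm on chromosome 11, was also called lower with the block (-0.76, limma's adjusted p = 0.0298, against -0.45 and 0.0606 before centring). Pitx1 had 3.66, 1.31 and 3.04 CPM in WT and 1.91, 0.870 and 1.41 CPM in Scl-/- replicates 1, 2 and 3, and its replicate 2 was the lowest of each genotype, as for Tbx4. Of 10 other T-box family genes only Mga, which also carries a bHLH domain and binds MAX, was listed. Mga had 194, 210 and 133 CPM in WT and 180, 161 and 132 CPM in Scl-/- replicates 1, 2 and 3, and its log2 fold change was -0.17 (limma's adjusted p = 0.766, or 0.174 with the block).

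**Figure D4:**
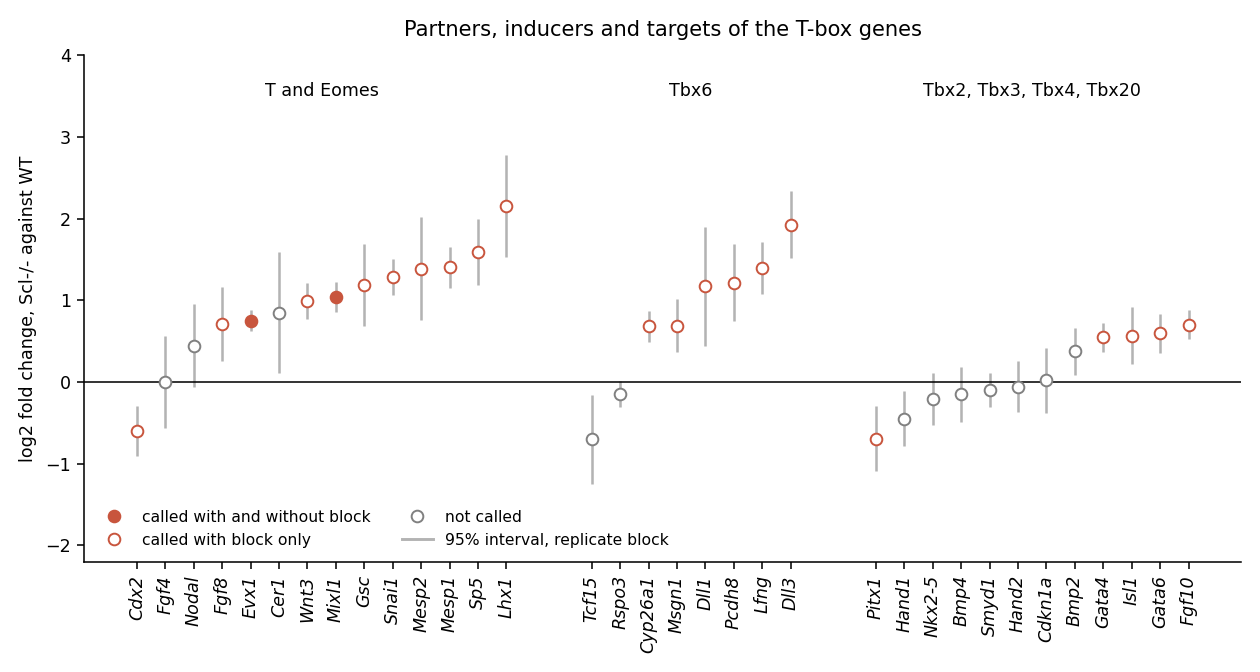
Log2 fold change (vertical axis, Scl-/- against WT) of the measured partners, inducers and targets of T and Eomes (14 genes), Tbx6 (8) and Tbx2, Tbx3, Tbx4 and Tbx20 (12), with grey bars for the 95% interval with the replicate block. Filled red points were called with and without the block (Mixl1 and Evx1), open red points with the block only, and grey points were not called.

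The marker sets of mesoderm and haemato-endothelial cells did not all go the same way. The summed level of PDGFRa+ paraxial or cardiac mesoderm markers ran from 79.1 to 195 CPM in the WT and from 147 to 375 CPM in the Scl-/- libraries. Limma called 3 of 3 measured markers higher with the block (Meox1 was not listed), against 6.04% of all genes tested. Without the block it called 0, and 2 had an unadjusted p under 0.05. Pdgfra itself had 46.6, 121 and 63.4 CPM in WT and 75.7, 191 and 156 CPM in Scl-/- replicates 1, 2 and 3, the same order of libraries within each genotype as Eomes and Tbx6. Mesp1 and Msgn1 stand both among these markers and in the gene lists above. The 6 haemato-endothelial markers were lower in Scl-/- cells, with sums of 342 to 591 CPM in WT and 58.1 to 126 CPM in Scl-/- libraries. Limma called 4 of them without the block, against 2.36% of all genes in either direction. With the block it called 6, against 6.6% of all genes called lower. The FLK1+ mesoderm markers summed to 1538 to 1770 CPM in WT and 1412 to 1539 CPM in Scl-/- libraries, with 1 of 4 called higher without the block, and with it 1 higher and 1 lower. The part of such differences in cell composition in the T-box values was not tested.

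Markers of less or otherwise differentiated cells were present at low to moderate sums. Those of undifferentiated ES cells or epiblast summed to 90.1 to 158 CPM in WT and 91.1 to 236 CPM in Scl-/- libraries. Limma called 0 of 6 without the block (1 with an unadjusted p under 0.05). With the block it called 3 higher and 1 lower, against 6.04% and 6.6% of all genes tested. For definitive endoderm, which Eomes also marks, 2 of 4 markers were listed, at 42.9 to 66.3 CPM in WT and 53.0 to 102 CPM in Scl-/- libraries, while Foxa2 and Foxa1 were not listed. Limma called neither without the block, although both had an unadjusted p under 0.05, and with it Sox17 lower (log2 fold change -2.10) and Cxcr4 higher (1.00). Sox17 is also known from endothelium, and the 6 haemato-endothelial markers had a median log2 fold change of -2.37. In which cells Sox17 was lower was not tested. No visceral endoderm marker was listed (0 of 4), and of 3 neural markers only Pax6 was. The part of these cell types in the T-box values was not tested.

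The genes beside the members were examined because the median log2 fold change of some whole chromosomes differed from 0. Chromosome 1, which carries none of the members, had a median of -0.29 over 789 tested genes, and chromosome Y of 1.75 over 4. Mixl1, Sox17 and Cxcr4 lie on chromosome 1, and centring on the chromosome moved them to 1.33, -1.81 and 1.29. On chromosome 11, which carries Tbx2 and Tbx4, the median log2 fold change of 1211 tested genes was 0.31. Within 500 kb of Tbx4, 7 genes were tested and limma called none with the block, against 12.6% of all genes tested. With the block, 4 of the 7 had an unadjusted p under 0.05, as did 5161 of the 13991 genes tested. Apart from Tbx2, the 7 neighbours had log2 fold changes of 0.17 to 0.29, including 0.29 for Brip1, 142039 bases downstream of Tbx4. Tbx4 itself was called with the block, in the direction opposite to the median of its chromosome. All 7 neighbours lay within the fold-change threshold, which barred a call whatever their p. For 4632419I22Rik, limma's adjusted p was 0.0320 with the block, at a log2 fold change of 0.28. The absence of called neighbours therefore does not set Tbx4 apart. After the median of each chromosome was subtracted, the log2 fold change of Tbx4 was -1.72 (limma's adjusted p = 7.2e-04 with the block) and that of Tbx2 was -0.47 (limma's adjusted p = 0.334 with the block). The gene 2610027K06Rik, 328 bases from Tbx2, had a log2 fold change of 0.25.

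**Figure D5:**
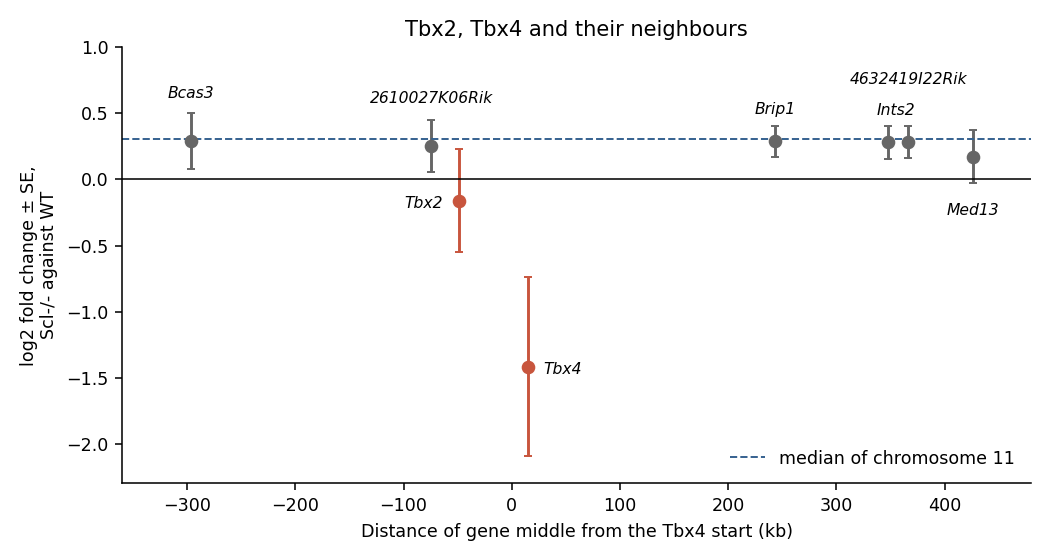
Log2 fold change ± SE without the block (vertical axis, Scl-/- against WT) of Tbx2 and Tbx4 (red) and the other tested genes within 500 kb of Tbx4 (grey), by distance of the gene middle from the start of Tbx4 in kb. The grey points lie near the dashed line at the median of chromosome 11 (0.31), and Tbx2 and Tbx4 lie below 0.

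The chromosomes of the other members had medians near 0, at 0.0099 for chromosome 17 (T), 0.013 for chromosome 9 (Eomes and Tbx20), 0.0089 for chromosome 5 (Tbx3) and 0.014 for chromosome 7 (Tbx6). Centring on the chromosome left T at 0.72 (limma's adjusted p = 3.4e-04 with the block). Near T, 1 of 10 tested genes within 500 kb was called with the block, against 12.6% of all genes tested. This gene, T2, lies 11695 bases upstream of T and had the value 0.54 on the log2 scale (limma's adjusted p = 0.0192 with the block). Pde10a, on the other side, had a log2 fold change of -0.012. Limma with the block called none of the 7 genes around Eomes (Cmc1 0.083 and Golga4 -0.022), the 3 around Tbx3 (Rbm19 -0.06) or the 4 around Tbx20 (Dpy19l1 -0.26 and Herpud2 -0.23). With the block, an unadjusted p under 0.05 was reached by 3 of the 7 genes around Eomes, 1 of the 3 around Tbx3 and 4 of the 4 around Tbx20. Over all genes tested it was reached by 5161 of 13991. The 4 around Tbx20 had log2 fold changes of -0.26 to -0.22, in the direction of Tbx20 itself (-0.33). The cause of this shared direction was not tested. In the gene-dense region of Tbx6, 45 genes were tested and 4 called with the block, 3 higher and 1 lower, against 12.6% of all genes tested. Its nearest neighbours, Ypel3 at 969 bases and Ppp4c at 347 bases, had log2 fold changes of 0.40 and 0.12 and were not called.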

How the data were processed

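FLK1+ cells of day 3.5 EBs were profiled by RNA-seq in 3 WT and 3 Scl-/- libraries. The authors aligned reads to mm9 with TopHat2 2.0.8b, removed duplicate reads, kept those with a mapping quality above 15 (SAMtools 0.1.19 is named in the submitters' processing notes), normalized with edgeR's TMM method and deposited CPM values for 14005 genes. The counting tool, annotation and strand setting are not given in the sources used here. Duplicate removal can cap the levels of abundant transcripts.

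Every deposited CPM value was a whole multiple (tolerance 0.01 reads) of one step per library, which gave the reads on listed genes. Low values were too rare to meet the criterion for recovered reads, and no count test was run. CPM totals were 976038 to 1017910.

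The 13991 genes that reached 0.5 CPM in 3 or more libraries were fitted on log2(CPM + 0.5) with limma 3.58.1 in R 4.3.3 (intensity trend), with a term for genotype alone, and Benjamini-Hochberg adjustment over all genes tested. The same fit with the replicate number as a block stands beside it. The design text describes independent differentiations, and same-numbered WT and Scl-/- libraries deviated together from their group means (r = 0.59, 0.76 and 0.75 across genes, against -0.62 to -0.10 for different numbers), so the numbers were taken as pairs. Each genotype was centred on its own mean, so positive values for same numbers force negative ones among different numbers. The negative values are therefore not separate support for the pairing. Tables and figures were made in Python 3.11.15 with pandas 2.3.3, NumPy 2.4.6 and Matplotlib 3.10.9. Positions are from the GENCODE annotation of mm9, and promoters from RefSeq (GRCm38.p6, 5 of 7 members matched).

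Members and lists were chosen with earlier results of these data known. Named are the 7 members, the targeted gene, list genes called with or without the block at an absolute log2 fold change above 1, the nearest tested gene on each side of a member within 500 kb, and the 2 genes most correlated with each member (mean of at least 1 CPM). Other genes named with values (Evx1, Cdx2, Tcf15, Fgf4, Hand1, Fgf10, Gata6, Isl1, Gata4, Pitx1, Kdr, Pdgfra, Sox17, Cxcr4 and T2) and the F test of the replicate number were chosen after values were seen. Alternatives were a pseudocount of 0.1 or 1, a filter on the mean (2 CPM) or none, median-ratio scaling, no intensity trend, other fold-change thresholds, centring on the chromosome median, the replicate block and leaving out libraries.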

Additional observations from a re-analysis of the deposited data

How the results depend on the processing

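The direction of T, Eomes, Tbx3, Tbx4, Tbx6 and Tbx20 was the same in all alternatives run. Pseudocounts, filters, median-ratio scaling, the intensity trend, fold-change thresholds and chromosome centring, each without the block, kept all 7 members uncalled. With the replicate block 4 members and 1768 genes were called, against 0 and 330 without it, and with chromosome centring and the replicate block 4 and 1492. With the replicate block and no fold threshold, an alternative added once the data had been seen, the counts were 4 and 3385. Log2 fold changes past the threshold with the replicate block were 0.74 for T, 1.03 for Eomes, -1.42 for Tbx4 and 0.90 for Tbx6, and with centring as well 0.72, 1.03, -1.72 and 0.89. Leaving out 1 library without the block gave 44 genes (without WT replicate 1) to 384 (without Scl-/- replicate 1), with 128 without WT replicate 3, 129 without Scl-/- replicate 2 and 162 without Scl-/- replicate 3. These fits called 0 or 1 member. Their log2 fold changes ranged from 0.63 to 0.86 for T, 0.76 to 1.38 for Eomes, -2.11 to -0.90 for Tbx4, 0.53 to 1.29 for Tbx6, -0.82 to -0.05 for Tbx20, -0.36 to -0.08 for Tbx3 and -0.57 to 0.30 for Tbx2. Leaving out replicate 1, 2 or 3 with the replicate block gave 2062, 1122 and 1210 genes and 6, 4 and 4 members. The log2 fold changes were then 0.79, 0.73 and 0.70 for T, 1.09, 1.19 and 0.83 for Eomes, -1.34, -1.59 and -1.32 for Tbx4 and 1.05, 0.92 and 0.73 for Tbx6, all called. Without replicate 1, the only pair in which both were higher in Scl-/- cells, Tbx2 (-0.60) and Tbx20 (-0.69) were called too. Tbx2 was reversed without Scl-/- replicate 2 (0.30) and, with the replicate block, without replicate 2 (0.27), and the cause was not tested. Tbx4 rested on 13 reads in its lowest library, and the part of depth in its spread was not tested. Among the list genes described above, centring with the replicate block ended the call of Dll1 and added that of Hand1.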
